A study of Mus musculus with 12 samples.

Results

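The 2 libraries labelled SPDEF vector and the 2 libraries of the Rosa26 control were compared in the organoid line mT69a, which makes 4 of the 12 libraries of the series. They were chosen by title alone, with no measured value involved. mT69a is a culture of mouse pancreatic ductal adenocarcinoma cells of strain C57/Bl6, grown as hollow epithelial spheres in Matrigel, and the labels give Trp53LSLR172H/LOH and Pdx1-Cre in its genotype. Cre driven by Pdx1 switches on mutant Trp53 (R172H) in the pancreatic lineage, and every group carries this genotype, so no group is normal tissue. The sample labels give the second Trp53 copy as lost, whereas the series' design text writes it as wild type. The control was cut at Rosa26, a harmless locus, and carries an empty vector. The vector libraries carry a cut in Spdef and an over-expression vector for SPDEF, and the 2 knockout libraries of the same line carry the same kind of cut with an empty vector. Titles give a single name, KO1, for knockout and vector, and do not say whether it stands for a clone. The vector libraries differ from the control by the culture they came from, by the cut in Spdef and by the vector. These cannot be told apart in a comparison with the control.

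SPDEF is an ETS-family transcription factor best known from goblet cells and other mucus-secreting epithelia, where it drives the late steps of secretory maturation. Cells of that kind fold, glycosylate and export very large mucins, and they use AGR2, a disulphide isomerase, ERN2, the epithelial form of the stress sensor IRE1, and factors of the CREB3 and FOXA families to do so. In pancreatic cancer these genes belong to the classical, gland-like programme, together with endoderm factors of the GATA family.

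The question was which genes stood at, short of or beyond the control level when the vector was present. Spdef itself (ENSMUSG00000024215, GRCm38 chromosome 17, 27714352 to 27728955) cannot answer how much was put back. It had 2 and 4 counts in the control libraries, 2 and 0 in the knockout and 2 and 0 in the libraries labelled SPDEF vector. The vector group's sum of 2 lies at or under the floor of 3 counts over a group, and the ratio to the control was 2.72-fold lower with a 95% counting interval of 0.486 to 27.5. The labels spell the vector's gene in capitals and do not state its species, and transcripts of a construct that do not match the mouse gene would not be counted here. Every direction below therefore rests on the label.

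The 4 libraries held 13223601 to 16700860 expected counts, and mitochondrial genes took 14.7% to 23.5% of them, higher in the library numbered 2 of each group. Counts of replicates differed far more than sampling noise, with a chi-square per gene of 67.9 in the control and 32.2 in the vector group. The labels do not say whether replicates were separate cultures, so p-values measure the spread between these libraries only. In a principal component analysis of the 6 mT69a libraries, the first component (49.2% of the variance) set the control apart from both knockout and vector, and the second (24.3%) set knockout apart from vector. The epithelial label was borne out: 7 epithelial markers summed to 4015 to 4333 CPM (counts scaled to library size) in the control and 4580 to 5152 in the vector libraries. Summed fibroblast markers stayed at 0.188 to 0.541 CPM in these 4 libraries, and Col3a1, Lum, Pdgfrb and Thy1 were at 0 in both groups. Summed immune markers stood at 12.8 to 13.3 CPM in the control and 13.4 to 16.3 in the vector libraries, with Adgre1 and Cd3e at 0 in both.

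Against the control, 1015 genes were higher and 776 lower in the vector libraries, in edgeR's quasi-likelihood test with Benjamini-Hochberg adjustment at 0.05. That was 7.01% and 5.36% of the 14473 genes tested, or 12.4% together, and every later count of members from this fit is read against these shares. Of the called genes 674 were higher and 379 lower by more than 2-fold. The called groups never overlapped, but neither did those of 54.8% of all genes tested, so a lack of overlap between 2 and 2 libraries says little. Each control and vector library carries much of the count: leaving out the control library numbered 1 gave 528 higher and 411 lower, without control 2 it was 634 and 386, without vector 1 it was 533 and 269, and without vector 2 it was 608 and 313. With the replicate number as a block the counts were 1761 and 1491, and 1786 of the 1791 calls were also made there in the same direction. DESeq2 gave 1100 and 768. Member counts from the block, from DESeq2 or with a library left out are to be read against the counts over all genes in the same fit. Those counts rise or shrink with the setting as well.

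Genes called in the knockout were followed by setting the vector libraries against both neighbours. Knockout and control differ by culture as well as by the cut in Spdef, and these cannot be told apart. In the knockout 1244 genes were called against the control (8.60% of those tested), 707 higher (4.88%) and 537 lower (3.71%). Between vector and knockout 615 were called (4.25%), 372 higher (2.57%) and 243 lower (1.68%) in the vector libraries. A gene returned if the vector differed from the knockout in the direction of the control and no longer from the control. It fell short or passed if the vector also differed from the control, on the knockout's side or on the far side. It was kept if the vector differed from the control as the knockout did and not from the knockout. It went further if the vector moved away from the knockout and from the control in the same direction. By this rule 113 genes returned, 39 fell short, 12 passed, 722 were kept, 60 went further and 298 were unresolved, and 958 more were called against the control without a call in the knockout. The comparisons share libraries, so the class counts are a description with no test, and the classes depend on them: the 12 genes that passed came to 4 to 8 when any of the 6 mT69a libraries was left out, and the 722 kept genes to 347 to 464.

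**Figure D1:**
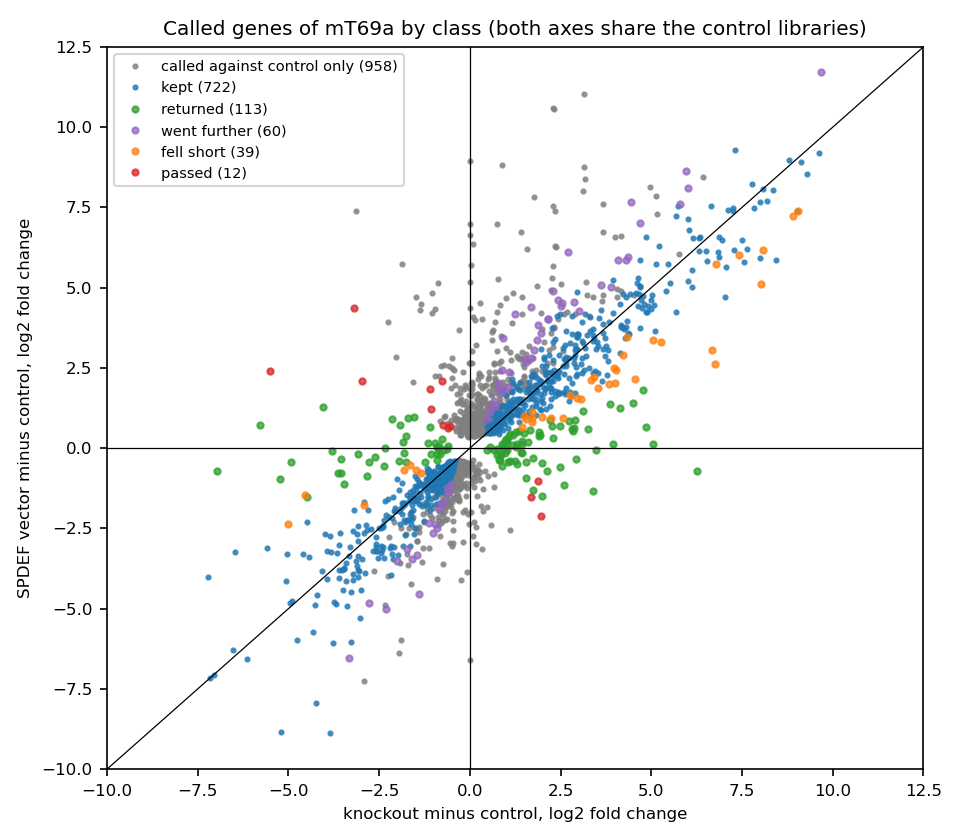
Each point is a gene called in mT69a, without the 298 unresolved genes. Points are placed by the log2 fold change of knockout minus control (x axis) and SPDEF vector minus control (y axis). Colours give the class, with the number of genes in each class in brackets. The 722 kept genes lie around the diagonal, where the vector libraries stood as far from the control as the knockout did. A band along the horizontal axis holds the 113 genes that returned. The largest class, 958 genes called against the control only, had a median absolute change of 0.39 in the knockout and 0.97 in the vector libraries (log2). Both axes share the control libraries, so some of the alignment comes from that.

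For genes that returned, the median share of the knockout change undone was 92.5%, and 60 of the 113 had a 95% interval of vector minus control that lay within 2-fold of the control. For the 39 that fell short the median was 42.0%, and for the 12 that passed 207%. For the kept genes it was -2.3%. These shares follow in part from the class rule, which asks for a call between vector and knockout or for none, and are given as a description. By count, the 722 kept genes were the most numerous of the classes among the 1244 knockout calls.

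Regulators of secretory cells were among the 12 genes that passed the control. Creb3l1 (ENSMUSG00000027230, chromosome 2, 91982328 to 92024502) encodes a membrane-tethered transcription factor that raises secretory capacity. It stood at 0.875 and 1.08 CPM in the control, 0.108 and 0.0870 in the knockout and 23.1 and 17.7 in the vector libraries. All 3 groups were separate, with the knockout lowest and the vector libraries highest. The rise over the control was 4.38 ± 0.27 (log2 fold change ± SE, adjusted p = 9.49e-06), and the call held without each control and each vector library. Since the knockout had 3 counts in all, its fall is given by counts, 9.76-fold with a 95% counting interval of 3.04 to 49.97.

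Ern2 (chromosome 7, 122169893 to 122186207) followed the same order. Its levels were 2.63 and 4.18 CPM in the control, 0.108 and 0 in the knockout and 15.7 and 20.03 in the vector libraries. The vector libraries exceeded the control by 2.39 ± 0.42 (log2, adjusted p = 0.00470), a call that was lost without the control library numbered 1 (adjusted p = 0.0565). Foxa3 (chromosome 7, 19013284 to 19023538), a forkhead factor of gut and liver epithelium, stood at 5.25 and 5.72 CPM in the control, 0.806 and 0.522 in the knockout and 24.3 and 22.2 in the vector libraries. It exceeded the control by 2.08 ± 0.22 (log2, adjusted p = 0.000181) and fell below it by 2.98 on the log2 scale in the knockout. Of the 12 genes that passed, Foxa3 was the member that did so in all 6 fits with a library left out.

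SPDEF is known to favour the DNA core GGAT over the GGAA preferred by most ETS factors, so the bases before the start sites of secretory regulators are shown, from RefSeq on GRCm38.p6, in lower case with each GGAT, or ATCC where the match is on the other strand, in capitals. Foxa3 passed the control, Agr2 returned to it and Creb3l4 rose from the control level with no call in the knockout. No promoter entry was available for Creb3l1 or Ern2, so theirs could not be examined. The windows are the 250 bases before the start, printed 5′ to 3′ on the gene's strand: Foxa3 is chr7:19023540-19023789 (minus strand), Agr2 is chr12:35992675-35992924 (plus strand) and Creb3l4, at the first of 3 starts in the table, is chr3:90243513-90243762 (minus strand).
Foxa3: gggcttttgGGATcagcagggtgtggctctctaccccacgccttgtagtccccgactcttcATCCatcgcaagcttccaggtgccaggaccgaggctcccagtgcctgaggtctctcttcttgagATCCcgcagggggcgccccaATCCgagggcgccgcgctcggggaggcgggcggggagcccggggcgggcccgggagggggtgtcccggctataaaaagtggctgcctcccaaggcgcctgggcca
Agr2: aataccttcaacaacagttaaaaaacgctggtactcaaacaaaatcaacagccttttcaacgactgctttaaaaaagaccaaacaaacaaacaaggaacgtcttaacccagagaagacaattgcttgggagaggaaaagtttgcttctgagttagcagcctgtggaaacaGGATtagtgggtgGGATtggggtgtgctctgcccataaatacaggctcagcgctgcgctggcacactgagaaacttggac
Creb3l4: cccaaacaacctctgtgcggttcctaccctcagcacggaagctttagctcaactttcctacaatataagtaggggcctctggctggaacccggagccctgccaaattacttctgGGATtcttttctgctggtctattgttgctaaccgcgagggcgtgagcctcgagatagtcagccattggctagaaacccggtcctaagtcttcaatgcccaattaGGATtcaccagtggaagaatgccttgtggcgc
Foxa3 held 4 matches, Agr2 2 and Creb3l4 2 in these windows, and the windows of the other Creb3l4 starts held 0 and 3. A core this short is common: 74.1% of the 32851 promoters in the table held it on some strand, and the longer CCGGAT stood in 4.94% of them, in none of these 3 windows. Of the 12 genes that passed, 9 had a promoter in the table, 8 of them with GGAT and 1 with CCGGAT. A match is a run of letters, not a measured binding site.

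The other genes that passed by rising were named after their values were seen. Fxyd3, a regulator of the sodium pump, stood at 16.3 and 20.4 CPM in the control, 11.4 and 9.83 in the knockout and 77.3 and 78.7 in the vector libraries, a rise of 2.09 ± 0.14 over the control (log2, adjusted p = 1.53e-05). Cerk, which phosphorylates ceramide, exceeded the control by 1.85 (adjusted p = 0.000178) and Gstm1, a glutathione transferase, by 1.21 (adjusted p = 0.00161). Mpc1, a subunit of the mitochondrial pyruvate carrier, Osbpl10 and Lrrc8b exceeded it by 0.64 to 0.73 (log2). Osbpl10 lost its call without any control or vector library (adjusted p = 0.0590 to 0.120), and Lrrc8b without control 1 (0.0653), control 2 (0.0824) or vector 1 (0.117).

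In the other direction, 3 genes that were higher in the knockout ended below the control. Ptgs1, the constitutive cyclooxygenase, stood at 12.8 and 8.15 CPM in the control, 40.7 and 36.4 in the knockout and 5.10 and 5.32 in the vector libraries. Its fall against the control was -1.01 ± 0.22 (log2, adjusted p = 0.0127), and was lost without control 1 (0.0977), vector 1 (0.106) or vector 2 (0.0734). Ifne, an epithelial interferon, and Bcl2l15, of the BCL2 family, followed the same path at low levels. Ifne had 0.813 and 1.08 CPM in the control and 0.297 and 0.0902 in the vector libraries (adjusted p = 0.0401). Bcl2l15 had 2.31 and 2.42 against 0.890 and 0.722 (adjusted p = 0.0459). Both lost the call without any of the 4 libraries, with adjusted p of 0.0738 to 0.212 for Ifne and 0.139 to 0.210 for Bcl2l15.

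Agr2 (chromosome 12, 35992907 to 36004087) was among the genes that returned, with control libraries that lay apart at 6.13 and 19.5 CPM. It was 0.323 and 0.348 in the knockout and 5.64 and 7.58 in the vector libraries. The vector libraries stood above the knockout by 4.26 (log2, adjusted p = 0.0437), and lay around the lower control library. The difference from the control was -0.96 ± 0.60 (log2, 95% interval -2.32 to 0.40, adjusted p = 0.393), so the interval also holds levels well short of the control. Without control 2 it was 0.10. The class held in 2 of 6 fits with a library left out, and the median gene of chromosome 12 was itself lower in the vector libraries, as described further on.

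Rap1gap (chromosome 4, 137664726 to 137729861), which switches off the small GTPase RAP1, returned more firmly. Its levels were 92.8 and 96.4 CPM in the control, 17.0 and 14.0 in the knockout and 83.5 and 71.9 in the vector libraries, and its interval against the control was -0.60 to 0.04 (log2). Gcnt3, a core 2 and core 4 branching enzyme of mucin glycans, stood at 157 and 195 CPM in the control, 79.0 and 78.7 in the knockout and 188 and 202 in the vector libraries, with an interval of -0.16 to 0.46. Rap1gap and Gcnt3 kept their class in all 6 fits with a library left out. Sult1d1, a sulphotransferase, went from 11.6 and 12.3 CPM in the control to 0.161 and 0.696 in the knockout and 8.13 and 9.56 in the vector libraries (interval -1.56 to 0.70). Galnt6, which adds the first sugar of mucin glycans, was at 0 in both knockout libraries and at 0.771 and 0.451 CPM in the vector libraries against 0.938 and 1.14 in the control (-0.72 ± 0.47, adjusted p = 0.419).

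Among the genes that returned, 72 had been higher in the knockout and 41 lower, beside 707 higher and 537 lower among all knockout calls. Ppbp, a neutrophil-attracting chemokine, stood at 1.0 and 0.606 CPM in the control, 31.5 and 22.4 in the knockout and 1.07 and 0.631 in the vector libraries. Its vector and control libraries overlapped, though at this level the interval is wide (-1.40 to 1.64, log2). Lgr6, an R-spondin receptor of stem cells, stood at 0.750 and 0.269 CPM in the control, 11.6 and 11.9 in the knockout and 1.01 and 1.80 in the vector libraries. Itgb2, the leukocyte integrin beta chain, had 3 counts in the control, 87 in the knockout and 10 in the vector group, a vector-to-control ratio of 3.68 (95% counting interval 0.948 to 20.8). Lgr6 and Itgb2 show the limit of the class: their vector libraries lay above both control libraries, and the intervals of vector minus control (0.16 to 2.63 and 0.39 to 3.25) left out 0 although the adjusted test did not call them. Gsdmc2, of the gasdermin C genes, whose close copies can split reads, had 2, 168 and 1 counts in control, knockout and vector, the first and last at or under the floor.

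Basal-type genes were among those that returned. Hmga2, a chromatin protein of poorly differentiated cells, stood at 26.7 and 28.0 CPM in the control, 67.9 and 50.3 in the knockout and 20.7 and 20.3 in the vector libraries (adjusted p against the control = 0.203). Il1rn, the interleukin-1 receptor antagonist, stood at 64.4 and 57.8, then 169 and 125, then 69.5 and 56.6 (adjusted p = 0.950). With Ivl and Lgals1, 4 of the 6 basal-like and squamous markers that were higher in the knockout returned, beside 72 of all 707 genes higher in the knockout. With a library left out, Hmga2 held this class in 5 of 6 fits, Ivl in 3, Il1rn in 1 and Lgals1 in 0, and without knockout 1 none of the 4 held it. Against the control 2 of the 31 measured members of that list were higher (Itga3 and Itgb4) and 1 lower (Krt14), with a median log2 fold change of 0.24 beside -0.01 for all genes tested, which is near the background share. Without any control or vector library 1 member was higher and none lower, and with the replicate block 4 were higher and 3 lower. Krt17, a basal keratin, had 1 count in the control and 0 in the vector group and was not tested.

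The genes that fell short were mostly high in the knockout (32 of 39, beside 707 of all 1244 knockout calls), and many were close to absent in the control. Timp3 (chromosome 10, 86300372 to 86349506), an inhibitor of matrix proteases, stood at 0.688 and 0.471 CPM in the control, 62.6 and 68.5 in the knockout and 39.3 and 23.5 in the vector libraries. It remained 5.74 ± 0.35 above the control (log2, adjusted p = 8.14e-06) while 1.06 below the knockout (adjusted p = 0.0354). Timp3 fell short in 1 of 6 fits with a library left out and was kept in the others.

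Nrp1, a co-receptor for semaphorins and VEGF, had 1 count in the control, 593 in the knockout and 175 in the vector group. The vector level was 193-fold above the control by counts, with a 95% counting interval of 34.2 to 7675, and 3.15-fold below the knockout. Gnai1, an inhibitory G protein subunit, had 0, 135 and 39 counts and was at least 14.3-fold higher than in the control. Of the genes named here in this class, Gnai1 fell short in all 6 fits with a library left out.

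Sema5a, a semaphorin, came nearest to the control among them. It stood at 0.125 and 0.404 CPM in the control, 27.3 and 31.2 in the knockout and 1.66 and 1.62 in the vector libraries. Sema5a was thus 2.62 above the control and 4.15 below the knockout (log2, the first with adjusted p = 0.0101). Without control 1 or vector 1 it was classed as returned, with no call against the control. Prl2c3, of the proliferin genes, whose near-identical copies can split reads, stood at 0.438 and 0.202, then 48.2 and 18.8, then 3.15 and 2.26 CPM (adjusted p against the control = 0.0176). It lost that call without control 1 (0.0746), control 2 (0.126) or vector 1 (0.122). Spp1, osteopontin, a product of ductal cells, stood at 7.56 and 5.93 CPM in the control, 110 and 104 in the knockout and 34.1 and 43.2 in the vector libraries, 2.51 above the control (adjusted p = 0.00139). Spp1 was kept, and did not fall short, in all 6 fits with a library left out.

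**Figure D2:**
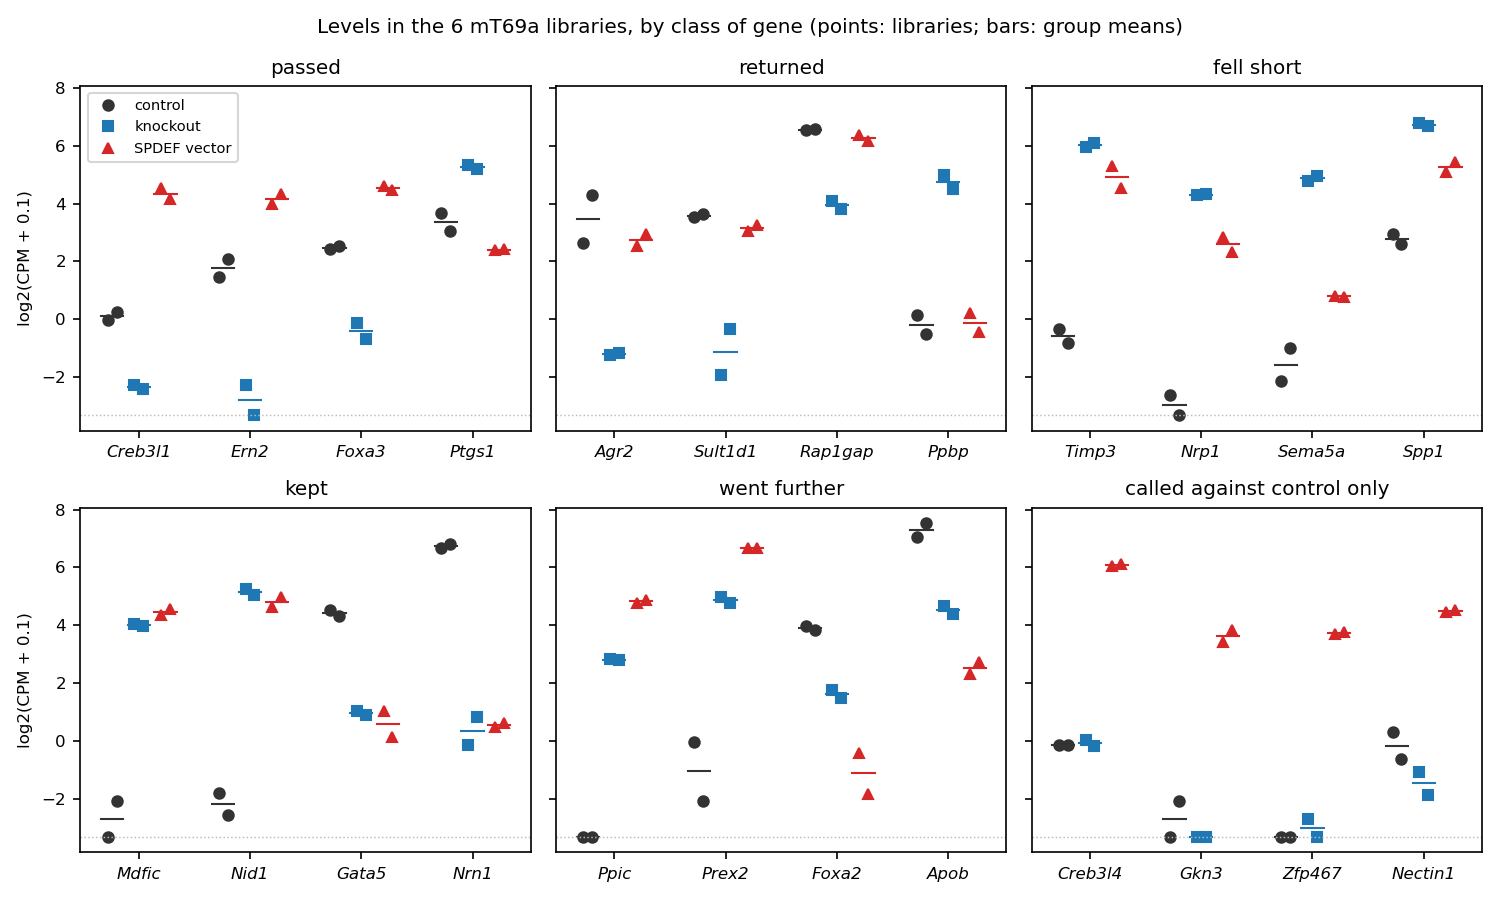
Points give log2(CPM + 0.1) in each of the 6 mT69a libraries (circles control, squares knockout, triangles SPDEF vector), bars the mean of a group on that scale, and the dotted line 0 CPM, for 4 genes of each class. Creb3l1, Ern2 and Foxa3 rise from the lowest to the highest group, Rap1gap and Ppbp end level with the control, Mdfic, Nid1, Gata5 and Nrn1 stay where the knockout was, and Creb3l4, Gkn3, Zfp467 and Nectin1 are high in the vector libraries only among these 3 groups.

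Some kept genes were on in knockout and vector and at or near 0 in the control. Mdfic, a regulator of mechanosensitive channels, had 2 counts in the control, 488 in the knockout and 606 in the vector group, 334-fold above the control by counts (95% counting interval 92.2 to 2769). Nr2f1, an orphan nuclear receptor, had 0, 200 and 136 counts (at least 50.05-fold above the control). Nid1 (chromosome 13, 13437551 to 13512269), the basement membrane linker nidogen, stood at 0.188 and 0.0673 CPM in the control, 38.0 and 32.9 in the knockout and 24.4 and 31.6 in the vector libraries. Its rise over the control was 7.66 ± 0.49 (log2, adjusted p = 1.00e-05), and vector and knockout libraries differed by -0.34 (adjusted p = 0.655).

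Cd300lb, an immune-type receptor, had 0, 114 and 115 counts in control, knockout and vector (at least 42.3-fold above the control), and Ppp2r2c, a phosphatase subunit, 0, 172 and 93 (at least 34.2-fold). C1qtnf1, a secreted C1q-like protein, had 0, 41 and 145 counts (at least 53.4-fold), and went further with the replicate block. These calls held without each control and each vector library. Stmn2, a tubulin regulator, had 0, 91 and 67 counts (at least 24.7-fold) and lost its call without control 1 (adjusted p = 0.108), control 2 (0.0991) or vector 1 (0.112).

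Other kept genes were on in the control and low in both other groups. Nrn1 (chromosome 13, 36725361 to 36735131), neuritin, stood at 101 and 112 CPM in the control, 0.806 and 1.65 in the knockout and 1.31 and 1.44 in the vector libraries, a fall of -6.28 ± 0.24 (log2, adjusted p = 4.53e-07). Alpi, intestinal alkaline phosphatase, stood at 17.8 and 10.6, then 0.699 and 0.261, then 0.119 and 0.361 CPM (adjusted p = 0.000691). Its neighbour Akp3, a close copy with which it can share reads, had 120, 3 and 0 counts and was at least 36.2-fold lower in the vector group. Akp3's call was lost without control 1 (adjusted p = 0.0679) or vector 1 (0.0651).

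Atp7b, the copper pump of liver and gut, fell from 9.25 and 13.9 CPM in the control to 0.475 and 0.271 in the vector libraries (-4.86 ± 0.33, adjusted p = 1.52e-05). Ddc, which makes dopamine and serotonin from their precursors, fell from 6.75 and 6.6 to 0.178 and 0.271 (adjusted p = 0.00186). Cachd1, a calcium channel accessory protein, had 229 counts in the control, 3 in the knockout and 2 in the vector group and was 104-fold lower than in the control (95% counting interval 28.4 to 862). Slc27a6, a fatty acid transporter, had 63, 3 and 0 counts and was at least 19.0-fold lower, a call lost without control 1 (adjusted p = 0.0540) or vector 1 (0.0586). Tmem150b had 88, 9 and 1 counts, a call lost without vector 1 (0.0621) or vector 2 (0.0671).

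Some genes moved on from the knockout and away from the control. Ppic (chromosome 18, 53406332 to 53418115), a prolyl isomerase of the secretory pathway, had 0 counts in the control, 208 in the knockout and 785 in the vector group, at least 289-fold above the control and 4.07-fold above the knockout. It lies on chromosome 18, whose median gene was lower in the vector libraries. Prex2, an activator of RAC1, stood at 0.875 and 0.135 CPM in the control, 31.3 and 27.1 in the knockout and 102 and 102 in the vector libraries, a rise over the control of 7.60 ± 0.49 (log2, adjusted p = 1.57e-05). Angptl2, a secreted angiopoietin-like protein, stood at 0.188 and 0.539, then 8.92 and 9.92, then 47.2 and 48.4 CPM (7.03 ± 0.33, adjusted p = 1.36e-06). Tmem176b stood at 0.688 and 1.68, then 21.3 and 27.4, then 73.8 and 74.4 CPM (5.97 ± 0.32, adjusted p = 3.53e-06). In each of these the 3 groups were separate and ordered control, knockout, vector.

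Kif26a, a kinesin-like signalling protein on chromosome 12, had 2, 50 and 427 counts (236-fold above the control, 95% counting interval 64.9 to 1953), and Itga5, the fibronectin receptor alpha chain, 0, 15 and 94 (at least 34.6-fold). Galnt12 (chromosome 4, 47091909 to 47123070), another enzyme that starts mucin glycans, went from 4.75 and 7.41 CPM in the control to 14.9 and 14.0 in the knockout and 102 and 117 in the vector libraries (4.17 ± 0.23, adjusted p = 3.53e-06). Nr4a1, an immediate early nuclear receptor, stood at 3.38 and 2.56, then 5.86 and 5.39, then 37.4 and 27.3 CPM (3.44 ± 0.24, adjusted p = 1.57e-05). With a library left out, Kif26a went further in 3 of 6 fits, Prex2 in 2, Nr4a1 in 1 and Itga5 in 0.

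The same order ran downward for 19 genes. Foxa2 (chromosome 2, 148042877 to 148046969), a pioneer factor of endoderm, stood at 15.4 and 14.3 CPM in the control, 3.28 and 2.70 in the knockout and 0.653 and 0.180 in the vector libraries. It fell by 5.01 on the log2 scale against the control (adjusted p = 4.97e-05), whereas its relative Foxa3 was higher. Cdhr2, a protocadherin that links brush border microvilli, stood at 97.8 and 112, then 14.4 and 6.09, then 1.42 and 0.722 CPM (-6.54 ± 0.57, adjusted p = 0.000111). Apob, the lipoprotein scaffold, encoded on chromosome 12, stood at 134 and 185, then 25.2 and 20.7, then 4.81 and 6.58 CPM (-4.82 ± 0.34, adjusted p = 9.66e-05). Foxa2 went further in 5 of 6 fits with a library left out, and Cdhr2 and Apob in 3, being kept in the rest.

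Beyond the genes called in the knockout, 958 were called against the control alone, 556 higher and 402 lower. Creb3l4 (chromosome 3, 90237500 to 90243512), a CREB3 relative of secretory cells, stood at 0.813 and 0.808 CPM in the control, 0.914 and 0.783 in the knockout and 65.9 and 68.6 in the vector libraries. The rise was 6.36 ± 0.20 (log2, adjusted p = 1.74e-07), the smallest adjusted p of the genes named here, and it held in every fit with a control or vector library left out. Gkn3 (chromosome 6, 87383256 to 87388935), a gastrokine of stomach mucosa, had 2 counts in the control, 0 in the knockout and 333 in the vector group, 184-fold above the control (95% counting interval 50.5 to 1524).

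Zfp467, a zinc finger factor, had 0 counts in the control, 1 in the knockout and 363 in the vector group (at least 134-fold above the control). Psors1c2 had 1, 2 and 527 (582-fold, 95% counting interval 104 to 23030), and Msx1, a homeobox factor, 0, 2 and 102 (at least 37.5-fold). Adamtsl3, a matrix protein, had 0, 0 and 110 counts (at least 40.5-fold), and H2-DMb1, a chain of the MHC class II loading complex with a close copy, 0, 2 and 78 (at least 28.7-fold). In the mT69a control and knockout groups, none of these 5 genes had more than 2 counts in a group. Cytip, also with 78 vector counts and none in the control, already had 22 in the knockout, and lost its call without control 1 (adjusted p = 0.0503). Dse, an epimerase of dermatan sulphate, was among the falls, with 153 counts in the control, 43 in the knockout and 2 in the vector group, 69.3-fold lower than in the control (18.9 to 577).

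The gene lists set these genes in context, beside 7.01% of all genes tested that were higher and 5.36% that were lower.

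**Figure D3:**
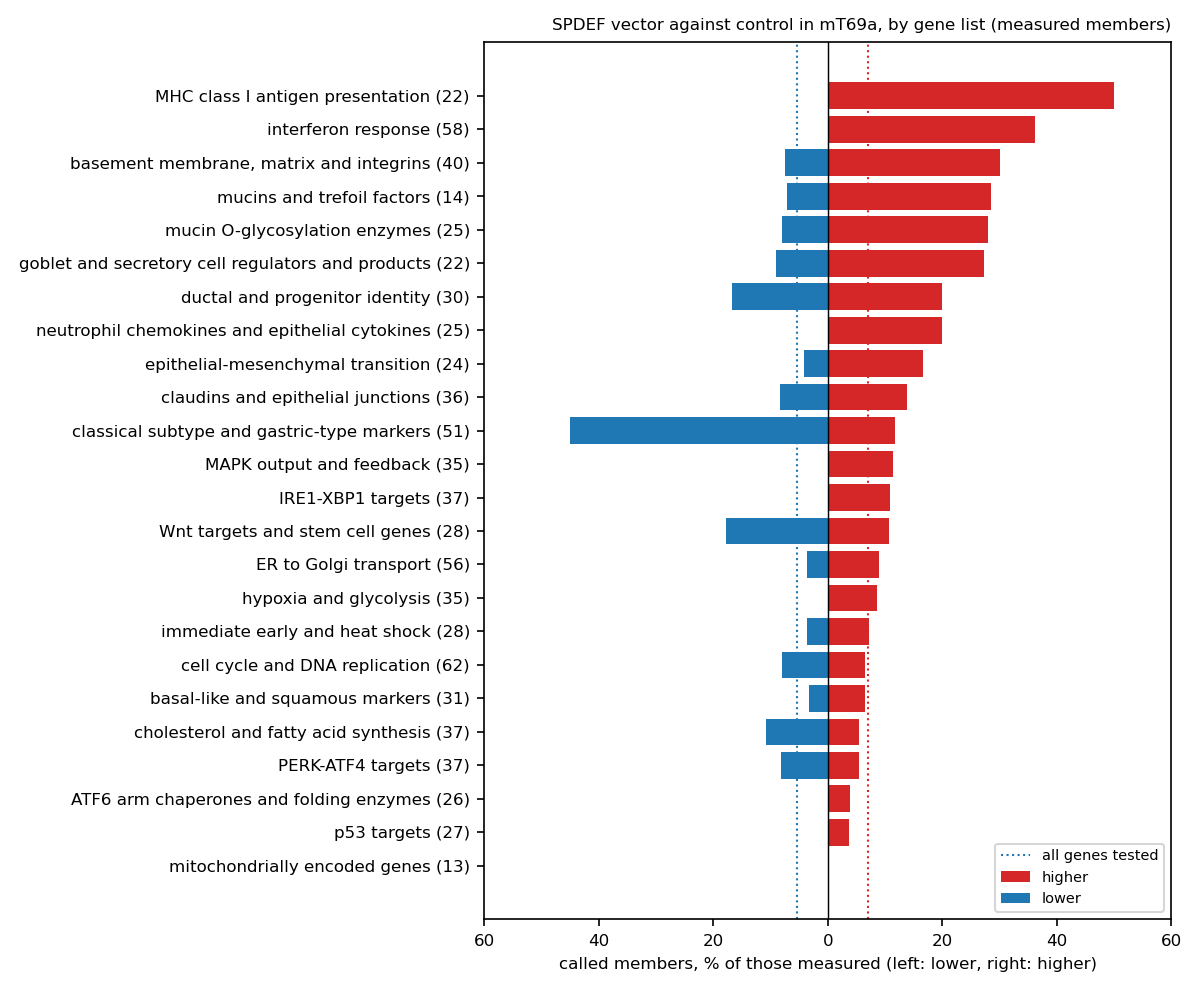
Bars give the share of measured members (number in brackets), for each list with at least 10 of them, that were called higher (right) or lower (left) in the SPDEF vector libraries than in the mT69a control, and dotted lines the share over all genes tested, 7.01% and 5.36%. Among these, the MHC class I and interferon lists reach farthest to the right and the classical subtype list farthest to the left.

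Of 22 measured goblet and secretory cell genes, 6 were higher than the control (Creb3l4, Creb3l1, Slc12a8, Ern2, Foxa3 and Ttc39a) and 2 lower (Foxa2 and Clca1), with a median of 0.73 (log2). In the knockout none of them was higher and 6 were lower. Ttc39a stood at 26.3 and 27.3 CPM in the control and 61.5 and 58.8 in the vector libraries (1.17 ± 0.13, adjusted p = 0.000252). Slc12a8 had 3 counts in the control, 3 in the knockout and 60 in the vector group, and lost its call without control 2 (adjusted p = 0.0761), vector 1 (0.0569) or vector 2 (0.0522). Clca1, a goblet cell secretory protein, went the other way, from 12.4 and 12.8 CPM in the control to 9.08 and 7.65 in the knockout and 3.50 and 3.88 in the vector libraries (-1.78 ± 0.23, adjusted p = 0.000565). The called members of the list thus did not move in 1 direction.

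The mucins themselves did not move as a block. Of 14 measured mucin and trefoil genes 4 were higher (Gkn3, Muc20, Muc13 and Muc1), 1 was lower (Muc5ac) and the median was -0.10. Muc1, a membrane mucin of ductal cells, stood at 138 and 143 CPM in the control and 277 and 245 in the vector libraries (0.89 ± 0.13, adjusted p = 0.00142). Muc13 went from 3.06 and 3.70 to 13.9 and 10.01 (adjusted p = 0.00642, lost without control 1 at 0.0680 or vector 1 at 0.0621). Muc20 went from 0.438 and 0.673 CPM in the control to 8.06 and 7.74 in the knockout and 4.98 and 4.33 in the vector libraries, and is a kept gene, though with the replicate block it fell short.

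Muc5ac, the gel-forming mucin of stomach-type cells, ran against the secretory regulators. It stood at 4.63 and 10.2 CPM in the control, 1.51 and 1.65 in the knockout and 1.01 and 1.17 in the vector libraries (-2.77 ± 0.74, adjusted p = 0.0413). The call was lost without control 2, vector 1 or vector 2, and also without either knockout library. Tff1, a trefoil peptide, stood at 12.4 and 6.06 CPM in the control and 2.02 and 1.17 in the vector libraries (adjusted p = 0.0725). Tff2 had 6 counts in the control and 0 in the vector group, at least 1.81-fold lower (adjusted p = 0.0968). Muc4 stood at 2.0 and 3.77 against 1.42 and 3.88 CPM, and Muc6 at 0.375 and 0.741 against 0.415 and 0.722, with overlapping groups and intervals of -1.66 to 1.28 and -2.26 to 2.26 (log2).

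Enzymes that build mucin-type glycans were called higher in 7 of 25 measured members and lower in 2, with a median of 0.33. The higher ones were Galnt18, St6galnac2, Galnt12, B4galnt2, Galnt3, Galnt11 and St3gal4, and the lower ones B4galnt3 and Chst4. St6galnac2 (chromosome 11, 116675303 to 116694868), which caps short mucin glycans with sialic acid, stood at 1.69 and 1.82 CPM in the control, 2.85 and 4.35 in the knockout and 46.8 and 42.4 in the vector libraries (4.66 ± 0.48, adjusted p = 0.000228). B4galnt2, which makes the Sd(a) glycan, went from 10.1 and 14.8 to 66.3 and 62.5 CPM (adjusted p = 0.0153), and lost its call without control 1 (0.118), control 2 (0.0633), vector 1 (0.0769) or vector 2 (0.0628). Its relative B4galnt3 fell from 4.94 and 7.004 to 1.07 and 1.26 CPM (-2.36 ± 0.37, adjusted p = 0.00222). Galnt18 had 0 counts in the control and knockout and 30 in the vector group, at least 11.04-fold higher, and lost its call without any of the 4 libraries (0.0738 to 0.119). The list gave 2, 5, 2 and 3 higher members without control 1, control 2, vector 1 and vector 2.

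Few genes of protein folding in the endoplasmic reticulum were called in the fit without a replicate block. Of 37 measured IRE1-XBP1 targets 4 were higher (Kdelr3, Edem3, Edem1 and Ssr2) and none lower, and of 26 measured ATF6-arm chaperones 1 was higher (Txndc11), with medians of 0.23 and 0.16. Hspa5, the chaperone BiP, stood at 725 and 879 CPM in the control and 886 and 994 in the vector libraries (0.23 ± 0.19, 95% interval -0.20 to 0.65, adjusted p = 0.549). Xbp1 stood at 59.8 and 73.3 against 81.4 and 88.6 CPM (0.35 ± 0.16, adjusted p = 0.197). Dnajb9, on chromosome 12, stood at 18.9 and 26.3 against 16.0 and 17.95 (interval -0.85 to 0.02). Among those called, Kdelr3, which retrieves chaperones from the Golgi, went from 1.94 and 2.56 to 8.01 and 9.29 CPM (1.94 ± 0.29, adjusted p = 0.00170) and Edem3, of the degradation pathway, from 54.6 and 65.0 to 99.5 and 108 (0.80 ± 0.12, adjusted p = 0.00194).

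With the replicate number as a block, 11 IRE1-XBP1 targets were higher and 1 lower, and 8 ATF6-arm members were higher. In that fit 1761 of all 14473 genes tested were higher and 1491 lower, against 1015 and 776 without the block. The number of calls in these lists thus turns on how replicates are treated, and it rose by a larger factor than over all genes. Without the block, 16 of 37 IRE1-XBP1 targets had an unadjusted edgeR p under 0.05, in either direction. So had 8 of 26 ATF6-arm members and 3586 of all 14473 genes. Edem1 (adjusted p = 0.0239) was lost without control 1 (0.175), vector 1 (0.104) or vector 2 (0.134), and Ssr2 (0.0342) without any of the 4 libraries (0.0662 to 0.214). Txndc11 (0.00787) was lost without control 1 (0.0689) or vector 1 (0.0535). Transport from endoplasmic reticulum to Golgi had 5 of 56 members higher (Kdelr3, Ergic1, Mcfd2, Tmed9 and Copa) and 2 lower (Sec16b and Sec23a), and 10 and 3 with the block. The higher members were 2 without control 1 or vector 2, 3 without vector 1 or either knockout library, and 4 without control 2. Ergic1, a cargo receptor, rose from 92.0 and 91.0 to 218 and 192 CPM (1.17 ± 0.13, adjusted p = 0.000265). Sec16b, which marks exit sites, fell from 9.31 and 8.55 to 0.949 and 1.08 CPM (-3.14 ± 0.32, adjusted p = 0.000170), with 11.9 and 10.8 in the knockout. PERK-ATF4 targets had 2 of 37 higher (Nupr1 and Slc7a5) and 3 lower (Nars, Vldlr and Stc2), near the background. All 5 of those calls were lost on leaving out at least 3 of the 4 libraries, the lowest adjusted p with a library left out being 0.0137 for Vldlr without control 1.

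Markers of the classical subtype stayed below the control in larger number than any other list. Of 51 measured members 23 were lower and 6 higher, with a median of -0.83, and 25 were lower in the knockout. Gata5 (chromosome 2, 180325133 to 180334699), an endoderm GATA factor, stood at 22.7 and 19.9 CPM in the control, 1.94 and 1.74 in the knockout and 1.96 and 0.992 in the vector libraries (-3.80 ± 0.33, adjusted p = 0.000187). Hnf4a, the hepatocyte and gut nuclear receptor, stood at 152 and 141 CPM in the control, 30.7 and 22.96 in the knockout and 18.4 and 16.9 in the vector libraries (-3.05 ± 0.24, adjusted p = 3.51e-05). In Gata5 and Hnf4a the vector libraries stayed at the knockout level, far from the control.

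Gata6, on chromosome 18, stood at 3.31 and 3.03 CPM in the control and 0.178 and 0.0902 in the vector libraries (adjusted p = 0.00583), and lost its call without vector 1 (0.0560) or vector 2 (0.0581). Lgals4, a gut galectin, stood at 877 and 854 CPM in the control, 280 and 291 in the knockout and 199 and 175 in the vector libraries (-2.21 ± 0.28, adjusted p = 0.000678). Atp10b was the kept exception in direction, from 17.6 and 34.1 CPM in the control to 114 and 137 in the vector libraries (2.28 ± 0.25, adjusted p = 0.000265). Of the list's members that were called in the knockout, 18 were kept, 2 went further, 4 returned (Agr2, Gcnt3, Onecut3 and Rap1gap) and 2 passed (Ern2 and Foxa3). The list was fixed with these data known, and 13 to 21 members were lower when a control or vector library was left out, 13 of them without vector 1.

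Interferon-stimulated genes were higher in 21 of 58 measured members and lower in none, with a median of 2.999 (2.90 with genes at the floor set to their bound). In the knockout 29 were higher. The control was very low: Ifi204 had 1 count in the control, 720 in the knockout and 201 in the vector group (222-fold above the control, 95% counting interval 39.4 to 8809), and Oas1g 0, 162 and 116 (at least 42.7-fold). Both have close copies that can share reads. Igtp, an interferon-induced GTPase, had 1, 111 and 84 counts. Irf9, a subunit of the interferon signalling factor, stood at 5.94 and 7.47 CPM in the control, 45.6 and 13.05 in the knockout and 32.5 and 25.6 in the vector libraries (2.12 ± 0.49, adjusted p = 0.0211).

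The spread behind this list was large. The knockout libraries differed by several fold in Irf9, and the count of higher members was 6 without control 1, 9 without control 2, 10 without vector 1 and 11 without vector 2, but 40 without either knockout library, 27 with the replicate block and 37 by DESeq2. Irf9 was lost with the block (adjusted p = 0.0522) and without any of the 4 libraries (0.0610 to 0.146), Igtp without control 1 (0.0886), control 2 (0.0515) or vector 1 (0.0535) and Oas1g without control 1 (0.0550). Ifi204 held in all 4. Of 14 immune cell markers 8 were at 0 in the control and 8 in the vector libraries, Adgre1 and Cd3e among them, and their summed level in the knockout was 19.7 to 24.6 CPM. The part of immune cells in this list was not tested.

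Antigen presentation by MHC class I was higher in 11 of 22 measured members and lower in none, with a median of 1.02. Tap1, a subunit of the peptide transporter, stood at 0.875 and 1.14 CPM in the control, 19.4 and 7.05 in the knockout and 11.6 and 10.5 in the vector libraries (3.45 ± 0.45, adjusted p = 0.000712). H2-M3 went from 0.250 and 0.337 to 4.04 and 3.97 CPM (3.74 ± 0.46, adjusted p = 0.000472), and H2-Q7, one of a family of near-identical genes, had 1 count in the control and 88 in the vector group (97.2-fold, 95% counting interval 17.0 to 3881). The classical heavy chain H2-K1 stood at 167 and 191 against 173 and 176 CPM (95% interval -0.32 to 0.24, log2), and B2m, the light chain, at 35.9 and 41.6 against 55.1 and 49.0 (-0.18 to 1.03). Without control 1 or vector 1, 4 members were higher.

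Genes of basement membrane, matrix and integrins were higher in 12 of 40 measured members and lower in 3, with a median of 0.42, and 22 and 3 with the replicate block. Lamb1, a laminin chain on chromosome 12, rose from 2.501 and 4.18 CPM in the control to 23.9 and 32.8 (3.09 ± 0.26, adjusted p = 4.80e-05), with 24.8 and 25.9 in the knockout. Tinagl1, a basement membrane protein, rose from 140 and 109 to 363 and 298 CPM (1.41 ± 0.18, adjusted p = 0.000626). Itga3, a laminin receptor chain, rose from 272 and 243 to 508 and 483 (0.94 ± 0.17, adjusted p = 0.00407). Fbln1, a matrix fibulin, fell from 3.44 and 4.31 CPM, with 4.03 and 2.44 in the knockout, to 0.178 and 0.271 (-4.11 ± 0.45, adjusted p = 0.000228). Leaving out control 1 or vector 2 gave 6 higher members.

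In the list for epithelial-mesenchymal transition, 4 of 24 measured genes were higher (Timp3, Tgfb1, Epcam and Cd44) and 1 lower (Fbln1). Epcam is an epithelial adhesion protein, and it rose from 286 and 366 to 551 and 603 CPM (0.82 ± 0.16, adjusted p = 0.00718, lost without control 1 at 0.0685 or vector 2 at 0.0621). Tgfb1 rose from 1.56 and 1.35 to 5.99 and 4.60 CPM (adjusted p = 0.00755, lost without control 1 at 0.0507, control 2 at 0.0654 or vector 1 at 0.0716). Without control 1 the list had 1 higher member, Timp3 being the member that held in all 4 fits with a control or vector library left out.

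Junction genes were higher in 5 of 36 measured members and lower in 3. Nectin1, an adhesion molecule of adherens junctions, stood at 1.13 and 0.539 CPM in the control, 0.376 and 0.174 in the knockout and 21.7 and 22.8 in the vector libraries (4.71 ± 0.29, adjusted p = 9.49e-06). Cldn9, a claudin of tight junctions, rose from 0.563 and 0.943 to 9.02 and 10.4 CPM (3.68 ± 0.55, adjusted p = 0.00161). Nectin4 rose from 4.56 and 7.004 to 13.5 and 17.1 (1.40 ± 0.23, adjusted p = 0.00272), whereas Nectin3 fell from 3.001 and 2.15 to 0.771 and 0.541 (adjusted p = 0.0172, lost without control 1 at 0.121, vector 1 at 0.0907 or vector 2 at 0.144). Cldn18, the stomach-type claudin, fell from 304 and 320 to 167 and 183 CPM (-0.83 ± 0.14, adjusted p = 0.00370, lost without vector 1 at 0.0559).

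Ductal and progenitor genes split, with 6 of 30 higher and 5 lower, but 5 and 1 without vector 1, 6 and 2 without control 2, 4 and 3 without vector 2 and 4 and 4 without control 1. Car2, carbonic anhydrase of bicarbonate secretion, rose from 8.75 and 5.59 to 80.1 and 77.6 CPM (3.45 ± 0.38, adjusted p = 0.000361). Cftr, the chloride and bicarbonate channel, fell from 39.7 and 66.1 to 7.66 and 11.5 (-2.48 ± 0.53, adjusted p = 0.0172, lost without control 2 at 0.0887, vector 1 at 0.149 or vector 2 at 0.0780). Sox17, a progenitor factor, fell from 18.8 and 19.5 to 6.53 and 5.41 (-1.67 ± 0.20, adjusted p = 0.000361). Of the tuft and enteroendocrine markers 2 were measured and Avil was lower, 43.8 and 50.7 CPM in the control, 8.22 and 2.61 in the knockout and 2.79 and 3.07 in the vector libraries (-4.01 ± 0.44, adjusted p = 0.000288). Summed tuft markers were 44.4 to 51.6 CPM in the control and 3.26 to 3.79 in the vector libraries, nearly all of it Avil, while the other tuft markers stood at 0.606 CPM or less in both groups. In bulk RNA, fewer cells of a type and less RNA per cell cannot be told apart.

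Wnt targets and stem cell genes were higher in 3 of 28 and lower in 5, and 9 and 7 with the replicate block. Lgr5, the stem cell receptor, fell from 21.7 and 43.8 CPM, with 6.67 and 8.52 in the knockout, to 2.08 and 4.06 (-3.46 ± 0.38, adjusted p = 0.000294). Notum, a secreted Wnt inhibitor, rose from 4.06 and 5.52 to 12.05 and 16.5 CPM (1.57 ± 0.20, adjusted p = 0.000650). The remaining calls of the list, Id3, Cd44, Ascl2, Apcdd1, Rnf43 and Axin2, were each lost without some library, and 1 higher and 1 lower member was left without vector 1.

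MAPK output genes were higher in 4 of 35 (Spred3, Tgfa, Etv5 and Spry1) and lower in none, and 8 higher with the block. Spred3, a feedback inhibitor, rose from 0.750 and 1.28 to 7.60 and 8.93 CPM (3.02 ± 0.36, adjusted p = 0.000365) and held without each library, whereas Tgfa (0.0227) and Spry1 (0.0424) were lost without any of the 4 libraries (0.109 to 0.123 and 0.115 to 0.201) and Etv5 (0.00913) without control 2 (0.0756) or vector 1 (0.0838). Among cytokines 5 of 25 were higher and none lower. Pigr, which carries immunoglobulin A across epithelia, rose from 1.13 and 0.606 to 13 and 10.2 CPM (3.73 ± 0.64, adjusted p = 0.00587, lost without control 2 at 0.0537), and the list had 1 higher member without control 1. Of 28 immediate early and heat shock genes 2 were higher (Nr4a1 and Hspb1) and 1 lower (Socs3), and 5 and 2 with the block.

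Lipid genes gave 2 of 37 higher and 4 lower, and 5 and 8 with the block. Acly, which supplies acetyl-CoA for lipid synthesis, rose from 256 and 244 to 690 and 668 CPM (1.44 ± 0.12, adjusted p = 4.27e-05) and held without each library, whereas Fads1, Stard4 and Acss2 were each lost without 2 or more of them. Cell cycle genes gave 4 of 62 higher and 5 lower, near the background, with Rrm2 on chromosome 12 falling from 196 and 139 to 82.7 and 68.3 CPM (-1.15 ± 0.17, adjusted p = 0.00135) and Kif23 rising from 149 and 123 to 221 and 225 (0.72 ± 0.13, adjusted p = 0.00461). Hypoxia and glycolysis genes gave 3 of 35 higher (Slc16a3, Hk2 and P4ha2), none of which was called without control 1. Of 27 p53 targets 1 was higher (Tnfrsf10b). None of the 13 mitochondrially encoded genes was called in either direction by edgeR, none had an unadjusted p under 0.05, none was called by DESeq2, and 3 were higher with the block.

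Genes did not move evenly over the genome. The median gene of chromosome 12 was -0.39 and that of chromosome 18 -0.51 (log2, vector minus control), whereas the medians of the other 18 chromosomes lay between -0.13 and 0.10. These 2 chromosomes held 906 of the genes tested (6.26%) and 215 of the 776 lower calls (27.7%). In the knockout, which shares the control libraries, their medians were -0.34 and -0.49. On chromosome 12 19.5% of genes and on chromosome 18 30.8% were called lower, whereas the other chromosomes held 561 lower genes, 4.13% of those tested there. DNA copy number was not measured, and its part in this shift was not tested. Apob, Arl4a, Sec23a, Sdc1 and Rrm2, which fell, lie on chromosome 12, as does Agr2. Gata6, Slc27a6, Nars, Stard4, Apcdd1 and Cdc25c, which also fell, lie on chromosome 18. Whether the shift of these chromosomes has a part in the levels of these genes was not tested.

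**Figure D4:**
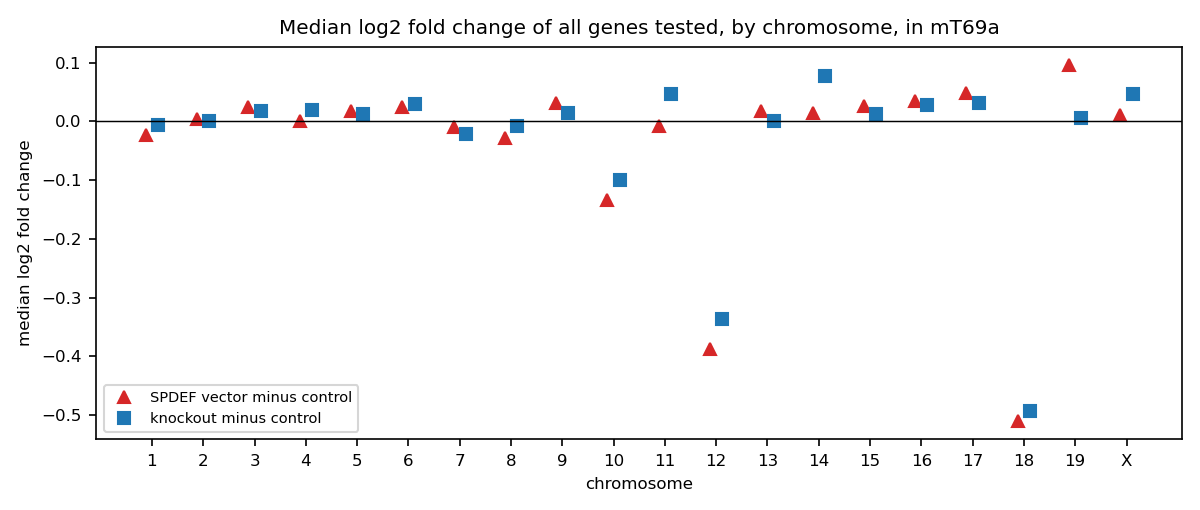
Each marker is the median log2 fold change of all genes tested on a chromosome in mT69a (triangles SPDEF vector minus control, squares knockout minus control, which share the control libraries). Chromosomes 12 and 18 lie at -0.39 and -0.51 for the vector and the others between -0.13 and 0.10.

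The line mT6, of the same design, shares no library with mT69a. Its control held more Spdef RNA, 2.28 and 1.04 CPM, against 0.117 and 0 in its vector libraries. In mT6 1245 genes were called in vector minus control (8.60%), 565 higher (3.90%) and 680 lower (4.70%). In both lines 256 genes were higher and 129 lower, which is 21.5% of the mT69a calls and 30.9% of the mT6 calls, while 70 were higher in mT69a and lower in mT6 and 18 the reverse. A test of the difference itself, the contrast of the 2 effects in the same edgeR fit, called 873 genes (6.03%), 566 with a higher value in mT69a (3.91%) and 307 with a lower (2.12%).

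Creb3l4 rose in mT6 too, from 3.58 and 3.07 to 77.9 and 84.8 CPM. The mT69a rise was larger by 1.74 ± 0.25 (log2, adjusted p of the difference = 0.00334), from a lower start. Creb3l1 went from 6.70 and 8.64 CPM in the mT6 control to 30.3 and 43.2, and the mT69a rise was larger by 2.14 ± 0.35 (adjusted p = 0.00581). For Foxa3 (1.05 ± 0.30, adjusted p = 0.0709), Ern2 (0.77 ± 0.56, adjusted p = 0.536), Gkn3 (0.83 ± 1.69, adjusted p = 0.882) and St6galnac2 (0.21 ± 0.63, adjusted p = 0.928) the difference was not called. Gkn3 and St6galnac2 were called higher in mT6 as well, the latter from 1.14 and 3 to 36.3 and 61.3 CPM.

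Rap1gap differed in the opposite sense. It returned to 83.5 and 71.9 CPM in mT69a, from a control of 92.8 and 96.4, but rose above the control in mT6, from 6.93 and 8.36 to 34.9 and 41.4 CPM, a difference of -2.59 ± 0.21 (adjusted p = 0.000101). Homer2, a synaptic scaffold, fell in mT69a from 72.5 and 69.9 to 9.67 and 7.13 CPM and rose in mT6 from 1.90 and 2.75 to 25.7 and 36.4 (difference -6.76 ± 0.32, adjusted p = 3.46e-06). Igfbp4, which binds insulin-like growth factors, rose in mT69a from 0.813 and 0.943 to 18.6 and 22.6 CPM and fell in mT6 from 86.1 and 71.9 to 10.3 and 9.51 (difference 7.53 ± 0.45, adjusted p = 1.77e-05). Nrn1, nearly lost in mT69a, rose in mT6 from 73.3 and 68.4 to 182 and 169 CPM (difference -7.59 ± 0.29, adjusted p = 1.46e-06).

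**Figure D5:**
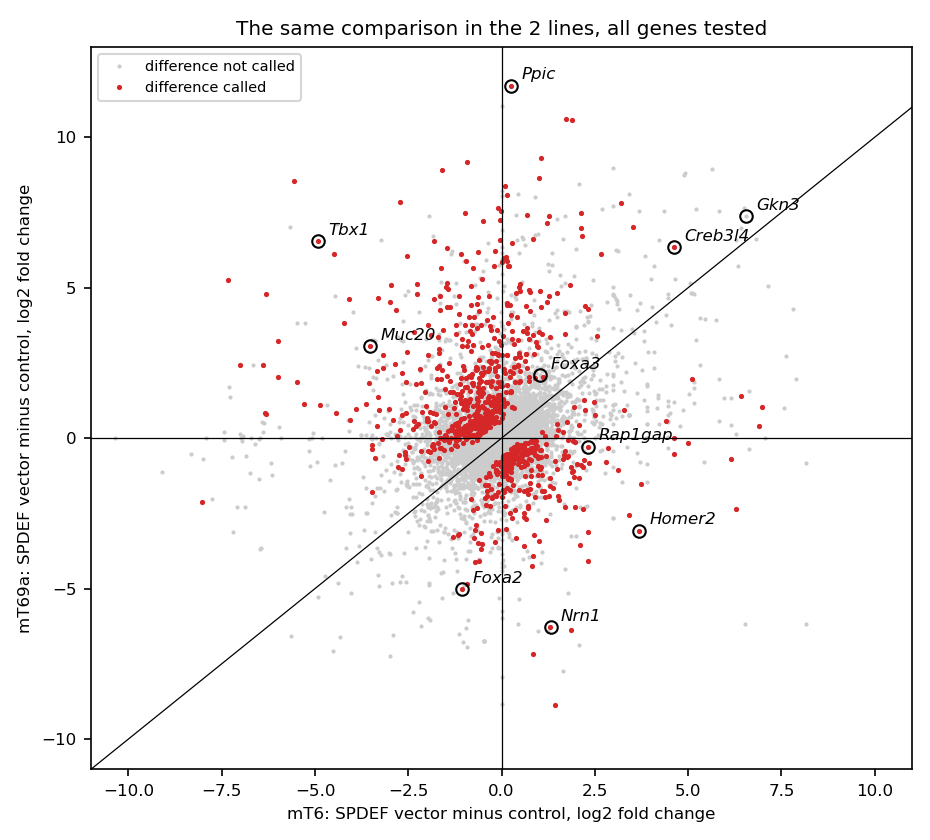
Each point is a gene tested, placed by its log2 fold change of SPDEF vector minus control in mT6 (x axis) and in mT69a (y axis), in red where the difference between lines was called (873 genes), with the diagonal drawn. Creb3l4 and Gkn3 lie high in both lines, and Homer2, Nrn1, Tbx1 and Muc20 have opposite signs in the 2 lines. Ppic lies at 11.72 in mT69a and 0.24 in mT6. Since a group had 3 counts or fewer for Ppic, its mT69a value depends on the prior count and serves as a sign only.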

How the data were processed

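RNA was measured by strand-specific total RNA sequencing of organoid cultures. The submitters' processing notes name FastQC 0.11.8, STAR 2.5.2b, RSEM 1.3.0 and GRCm38.p6 with no role or order. The deposited gene tables hold expected counts, which were rounded to whole numbers here, and the authors' TPM values, which entered only as an alternative. Of 53715 gene IDs 53620 matched GENCODE M21. Expected counts of multi-copy genes depend on how reads shared between copies were divided.

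All 12 libraries (6 groups of 2) entered a fit with edgeR 4.0.16 (R 4.3.3), using TMM factors, its filter on low counts, the quasi-likelihood test and Benjamini-Hochberg adjustment over 14473 genes, with a threshold of 0.05. The vector was set against the control and the knockout within mT69a, and the vector effects of both lines against each other. The fit had 6 residual degrees of freedom and a biological coefficient of variation of 19.2%. Where a group had 3 counts or fewer, ratios of summed counts with exact 95% intervals are given, or a bound at the floor of 3 counts over the group; these cover counting error only.

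Same-numbered libraries deviated together: over 15 pairs of groups the correlation of deviations was 0.205 to 0.531, so the replicate number pairs the samples. The pairing comes from these data, not from the labels. Alternatives were DESeq2 1.42.0, RLE factors, no filter, the replicate block, fewer libraries, limma 3.58.1 on log2(TPM + 1) and log2(TPM + 0.1), no mitochondrial genes and leaving out each library. The block on the 4 libraries alone and the fit without chromosomes 12 and 18 were chosen after seeing the data.

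Members, lists and tests were chosen with earlier results of these data known. Named are Spdef and 19 secretory, mucin and identity genes, the 15 largest rises and falls, 6 genes of each class, 6 in each direction of the difference between lines, and up to 4 called genes of each list and direction. Other names were added after their values were seen, and some genes and 1 allele are not reported here. Promoter sequences are RefSeq's.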

Additional observations from a re-analysis of the deposited data

Results flagged for a closer look

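For 64 of the 165 genes of the naming rule reported here, the vector-minus-control change differed between mT69a and mT6 by the test of the difference itself (edgeR, Benjamini-Hochberg adjustment). Over all 14473 genes tested, 873 differed (6.03%). The naming rule took some genes by this same test and many by large or called changes in mT69a. The larger share among them is therefore no result about these genes. Values are mT69a minus mT6 on the log2 scale, 48 above 0 and 16 below. For 13 of them a group had 3 counts or fewer, so the fitted value depends on the prior count and serves as a sign only: Ppp2r2c 14.11, Ppic 11.47, Oas1g 10.49, Nr2f1 10.11, Zfp467 8.88, H2-DMb1 8.28, C1qtnf1 8.24, H2-Q7 7.76, Nrp1 7.71, Itga5 7.64, Igtp 7.22, Gnai1 6.11 and Itgb2 5.38.

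The largest of the others were Tbx1 at 11.47 (adjusted p = 1.77e-05), Nid1 at 7.75, Igfbp4 at 7.53, Muc20 at 6.58, Timp3 at 5.93, Tmem176b at 5.90 and Stra6, a retinol transporter, at 5.89 (adjusted p = 3.98e-06). Tbx1, Igfbp4 and Muc20 were called higher in mT69a and lower in mT6. Next were Tap1 at 4.68, H2-M3 at 4.04, Spp1 at 3.91, Ckap4 at 3.87, Angptl2 at 3.50, Lamb1 at 3.46 and Nectin1 at 3.44. Differences of 2 to 3 were found for B4galnt2 at 2.86 (adjusted p = 0.0498), Notum at 2.62, Hspb1 at 2.49, Galnt12 at 2.46, Car2 at 2.36, Atp10b at 2.21, Creb3l1 at 2.14 and Spred3 at 2.05.

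Smaller positive differences were Tgfb1 at 1.95, Nectin4 at 1.95, Creb3l4 at 1.74, Nr4a1 at 1.74, Clca1 at 1.69, Ptgs1 at 1.66, Tnfrsf10b at 1.23, Etv5 at 1.19, Mcfd2 at 1.15, Epcam at 1.14, Edem3 at 1.13, Ergic1 at 1.03 and Kcnn4 at 0.89. For Clca1 and Ptgs1 the value is positive because the gene fell by more in mT6.

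Below 0 were Nrn1 at -7.59 (adjusted p = 1.46e-06), Homer2 at -6.76, Krt14 at -6.40 (adjusted p = 0.0431), B4galnt3 at -4.55, Foxa2 at -3.94, Atp7b at -3.94, Akr1c13 at -3.48, Nectin3 at -3.22, Arl4a at -3.00, Lncenc1 at -2.70, Rap1gap at -2.59, Id3 at -1.30, Rrm2 at -1.19, Itgb6 at -1.04, Sec23a at -0.95 and Cldn18 at -0.86. Arl4a, Rrm2 and Sec23a lie on chromosome 12.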

How the results depend on the processing

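Depth, 2 libraries a group and a single knockout, KO1, limit every count here, and the causes of the shifts between settings were not tested. With the replicate number as a block, 1761 genes were higher and 1491 lower in mT69a, the difference between lines gave 1221 and 859, and the classes held 304 returned, 113 fell short, 56 passed, 1233 kept, 164 went further, 450 unresolved and 1686 called against the control alone. The block on the 4 libraries alone gave 2362 and 2154. Without a filter on low counts the difference between lines gave 981 and 506, and 242 returned, 107 fell short, 37 passed and 136 went further. In a fit of mT69a alone 176 returned, 69 fell short, 27 passed and 111 went further. On log2(TPM + 1), log2(TPM + 0.1) and log2(TPM + 1) with no filter, 367, 397 and 325 genes were higher, 305, 295 and 272 lower, the difference gave 165, 173 and 140 higher and 94, 73 and 81 lower, 62, 44 and 62 returned, 8, 8 and 3 fell short, 2, 4 and 1 passed, 267, 263 and 255 were kept, 15, 14 and 10 went further, 131, 139 and 146 were unresolved, and 380, 403 and 328 were called against the control alone.

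Leaving out 1 mT69a library gave 528 to 949 higher and 269 to 654 lower, and for the difference 300 to 524 and 108 to 245. The classes ranged over 45 to 93 returned, 7 to 27 fell short, 4 to 8 passed, 347 to 464 kept, 17 to 38 went further, 78 to 483 unresolved and 344 to 1157 called against the control alone. Without chromosomes 12 and 18 the difference had 198 lower genes. The share of calls that were higher was 56.7%, against 61.1% without these chromosomes and 66.5% and 66.0% without vector 1 and 2. Fits of mT69a or of the 4 libraries alone give no difference between lines, and the 4 libraries give no classes.

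Leaving out 1 library, Agr2 ranged from -1.57 to 0.10 (the latter without control 2), Gsdmc2 from -3.16 to 2.41 (above 0 without control 1, and at 0.43 without vector 1), Muc4 from -1.004 to 0.43 (above 0 without vector 1, and at 0.33 without control 2), Muc6 from -0.41 to 0.56 (above 0 without control 2, at 0.37 without vector 1 and at 0.0050 without knockout 1) and Ppbp from -0.35 to 0.53 (below 0 without vector 1, and at -0.18 without control 2). Muc6, at 0.00 in the fit reported, was also above 0 with DESeq2 (0.025), RLE (0.0067), the block (0.091), TPM with no filter (0.0068) and no mitochondrial genes (0.0046). None of these 5 genes was called. With the block no gene of the naming rule changed its call, while Irf9, named beside it, lost its call (adjusted p = 0.0522).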
